A study of Mus musculus with 9 samples.

Results

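The islet hormone genes are 7 of the 54347 genes listed for this series of INS-p25OE tumors and normal mouse islets. They were chosen by name and not by their values: Ins1 and Ins2 for insulin, Iapp for amylin, Gcg for glucagon, Sst for somatostatin, Ppy for pancreatic polypeptide and Pyy for peptide YY. INS-p25OE mice carry Ins2-rtTA and tetOp-p25GFP, so that doxycycline in the drinking water induces p25, an activator of the kinase Cdk5, in β-cells through the insulin promoter, with a low level also made without the drug. There were 9 RNA libraries: M1 to M3 from functional tumors, M4 to M6 from non-functional tumors, and NI1 to NI3 from normal islets of C57BL/6 mice, 3 in each group. Sample titles separate M1 to M3 by a word read here as insulin, and the study calls these functional and the others non-functional. M2 came from a female and the other 8 libraries from males, while the labels gave no age and named no treatment. The study describes its samples as biological replicates, the labels do not tie libraries to animals, and the p-values measure the spread between these libraries.

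Each islet hormone belongs to its own endocrine cell type. Beta cells make insulin and release amylin with it, alpha cells make glucagon, delta cells make somatostatin, and PP cells make pancreatic polypeptide, while peptide YY is made by several islet and gut cells. Each is cut from a longer precursor and stored in dense-core granules, and insulin and glucagon act on blood glucose in opposite directions. The mouse has a pair of insulin genes, and Ins1 is a copy of Ins2 that arose by retroposition. In bulk RNA, fewer cells of a type and less RNA per cell cannot be told apart.

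Because Ins1 and Ins2 are close copies, how far their sequences differ decides how well short reads separate them. The first 150 coding bases of both are shown, from the GENCODE M21 transcripts on GRCm38, with the 14 differing bases in capitals. Ins1 lies at chr19:52264624-52264773 on the plus strand, inside the gene at chr19:52264297-52265476 (ENSMUSG00000035804). Ins2 lies at chr7:142679384-142679533 on the minus strand, inside the gene at chr7:142678656-142743381 (ENSMUSG00000000215), a span that includes a read-through model.
Ins1: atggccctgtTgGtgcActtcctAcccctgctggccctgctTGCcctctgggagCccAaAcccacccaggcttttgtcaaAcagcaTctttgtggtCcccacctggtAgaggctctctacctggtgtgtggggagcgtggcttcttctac
Ins2: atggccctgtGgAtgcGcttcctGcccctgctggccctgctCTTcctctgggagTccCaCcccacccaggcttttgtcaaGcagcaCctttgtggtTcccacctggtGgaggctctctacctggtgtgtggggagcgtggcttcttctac
Over the whole coding region 300 of 330 aligned columns were identical, 24 were mismatched and 6 were gapped, an identity of 92.6% of the ungapped columns, and the longest identical run was 54 bases. The reads were 75 bases long, and 0 of 988 windows of that length in Ins1-201 and 0 of 404 in Ins2-201 occurred in another gene's transcripts. Windows of 31 bases were shared at 47 positions, 4.55% of those in Ins1-201 and 10.5% of those in Ins2-201. How a trimmed read was divided between the copies was not tested, so both genes are also given as a sum.

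Gcg and Sst, which differed most between libraries, lie at chr2:62474530-62483650 (ENSMUSG00000000394) and chr16:23889573-23890958 (ENSMUSG00000004366), both on the minus strand. Their 250 upstream bases are shown from RefSeq (GRCm38.p6), at chr2:62483654-62483903 and chr16:23890845-23891094. For Sst the RefSeq start lies inside the gene span given above, which is from GENCODE, so the window overlaps that span. Capitals mark TAAT on either strand, the core that homeodomain factors such as Pdx1 bind, and TGACGTCA, the cAMP response element, which is its own reverse complement; the motifs do not overlap.
Gcg: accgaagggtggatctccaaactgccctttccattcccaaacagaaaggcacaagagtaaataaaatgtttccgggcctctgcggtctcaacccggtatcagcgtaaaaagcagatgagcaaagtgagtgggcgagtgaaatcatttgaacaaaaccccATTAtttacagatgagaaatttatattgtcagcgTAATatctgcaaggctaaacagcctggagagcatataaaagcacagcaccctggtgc
Sst: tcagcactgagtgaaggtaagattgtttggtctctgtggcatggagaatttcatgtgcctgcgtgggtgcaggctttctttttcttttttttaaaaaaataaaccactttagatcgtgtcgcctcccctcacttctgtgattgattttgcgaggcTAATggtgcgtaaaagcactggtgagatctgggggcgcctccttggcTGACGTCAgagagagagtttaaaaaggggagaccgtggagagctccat
TGACGTCA occurred in 1.55% of 32851 upstream windows of this length. Among the 6 members with an entry (all but Ins2) it occurred in Sst alone, starting 48 bases before the RefSeq transcription start. TAAT occurred in 54.9% of the windows, with 3 matches in Ins1, 5 in Iapp, 2 in Gcg, 1 in Sst and 0 in Ppy and Pyy. Iapp lies at chr6:142298423-142303961 (ENSMUSG00000041681), and Ppy (chr11:102099930-102101319, ENSMUSG00000017316) and Pyy (chr11:102106676-102107832, ENSMUSG00000017311) are neighbors.

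The libraries held 36468280 to 63637175 counts, and mitochondrial genes took 32.1% of them in M4 and 1.76% to 8.41% in the others. Cdk5r1, whose product p35 is the source of p25, was at 149 to 401 CPM (counts relative to the library's size, scaled between libraries by edgeR's TMM method) in the tumors, 18.4 CPM in NI2 and 12.5 CPM in NI3. In the library labelled NI1 it was at 280 CPM, inside the range of the tumors and against that library's label. With the 7 hormone genes left out, the profile of the library labelled NI1 was closest to that of M6, with a Pearson r of 0.989 over 15525 genes, the highest of all 36 library pairs. Its r with NI2 was 0.932, and that between NI2 and NI3 was 0.975. The main comparisons with islets are therefore also given without it. Beta-cell markers other than hormones had counts in every library. Their summed level was 3051 to 5285 CPM in the tumors, 3673 CPM in the library labelled NI1, 4856 CPM in NI2 and 6972 CPM in NI3. The sum does not describe each marker. Slc2a2 ranged from 22.8 CPM in M2 to 317 CPM in M1 among tumors. It was at 121 CPM in the library labelled NI1, 246 CPM in NI2 and 333 CPM in NI3.

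Together the 7 genes took up a smaller share of the tumor libraries than of the islet libraries. They held 9.89%, 3.92% and 2.34% of all counts in M1, M2 and M3, and 4.29%, 10.2% and 12.8% in M4, M5 and M6. They held 27.9% in NI2 and 30.4% in NI3, and 13.3% in the library labelled NI1. All 6 tumors were below all 3 islet libraries, and the library labelled NI1 was close to M6. The 95% Wilson intervals spanned at most 0.0254 percentage points and cover counting error only.

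The first question was whether tumors and islets differ in hormone mRNA, with the 6 tumors as a single group. The fitted fold change of all 7 genes was below 0, but 0 of 7 were called by the quasi-likelihood test of edgeR (adjusted p under 0.05), against 0.258% of the 15532 genes tested. Unadjusted p-values were under 0.05 for 4 of the 7, Gcg, Ins1, Pyy and Iapp, and for 3074 of all genes. DESeq2 called 4 members (Gcg, Ins1, Ins2 and Iapp), against 8.06% of all genes. Limma-voom with library weights called these and Pyy, against 26.8% of all genes, and limma-voom without weights called 0, against 0.212%. Without the library labelled NI1, edgeR called 1 of 7, Gcg, against 8.51% of all genes. The median log2 fold change of the 7 genes was -1.89, against 0.03 over all genes tested.

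**Figure D1:**
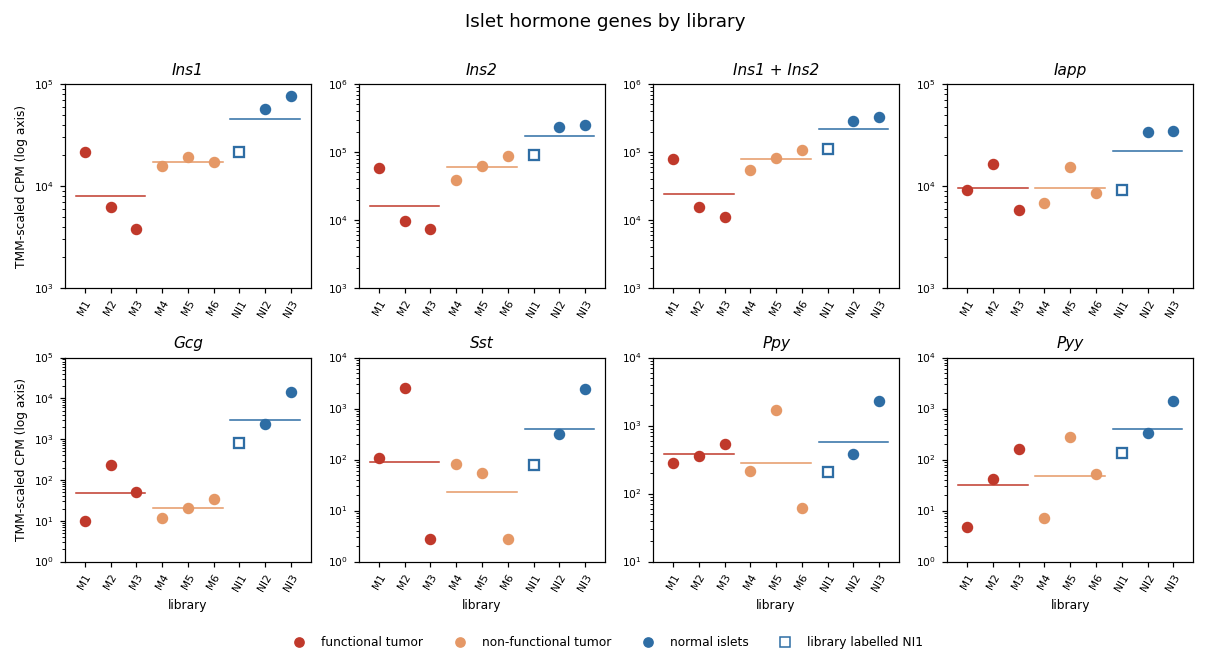
TMM-scaled CPM of each hormone gene and of the Ins1 and Ins2 sum in the 9 libraries, on log axes that differ between panels. Points are libraries, colored by group, the open square is the library labelled NI1, and horizontal lines are the geometric means of the 3 libraries of a group. For Ins1, Ins2 and Gcg all 6 tumors lie below all 3 islet libraries, while Sst and Ppy overlap.

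Ins1 was at 21305, 6238 and 3827 CPM in M1, M2 and M3, at 15783, 19041 and 17161 CPM in M4, M5 and M6, and at 57143 and 75991 CPM in NI2 and NI3. In the library labelled NI1 it was at 21653 CPM, just above M1. Ins2 was at 57492, 9544 and 7313 CPM in the functional tumors, at 39104, 61737 and 88719 CPM in the non-functional tumors, and at 232991 and 248686 CPM in NI2 and NI3. The library labelled NI1 held 88895 CPM of Ins2, next to M6. Both genes were thus lowest in M2 and M3, and no tumor reached an islet library, although M1 and M6 came close to the library labelled NI1. All tumors lay below all islet libraries for 492 of the 15532 genes tested (3.17%), among them 3 of the 7 hormone genes.

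The Ins1 and Ins2 sum averaged 57877 CPM ± 38031 (SD, n = 6) in tumors and 241787 CPM ± 114960 (SD, n = 3) in islets, a ratio of means of 4.18. On the log2 scale the sum differed by -2.06 (SE 1.02, adjusted p = 0.290, edgeR), and by -2.41 (SE 1.07, adjusted p = 0.188) without the library labelled NI1. Ins1 differed by -1.89 (SE 0.71, adjusted p = 0.196) and Ins2 by -2.11 (SE 0.99, adjusted p = 0.270). Neither difference passed the threshold against the spread between libraries, which was 12.1-fold among tumors for Ins2 and 5.57-fold for Ins1. In 19 alternatives the adjusted p was between 0.00955 and 0.625 for Ins1, from 0.0107 to 0.639 for Ins2 and from 0.00999 to 0.649 for the sum.

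Amylin, which beta cells release with insulin, varied least among tumors. Iapp was at 9091, 16371 and 5880 CPM in M1, M2 and M3, at 6743, 15348 and 8628 CPM in M4, M5 and M6, and at 34082 and 34873 CPM in NI2 and NI3. In the library labelled NI1 it was at 9167 CPM. The tumors spanned 2.78-fold, all of them were below NI2 and NI3, and 4 of 6 were below the library labelled NI1. The difference was -1.33 on the log2 scale (SE 0.59, adjusted p = 0.249) with all libraries and -1.74 (SE 0.58, adjusted p = 0.0942) without the library labelled NI1, and its adjusted p lay between 0.00543 and 0.668 in 19 alternatives.

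Glucagon mRNA showed the widest gap. Gcg was at 10.03, 238.6 and 50.1 CPM in M1, M2 and M3, at 12.0, 20.5 and 34.6 CPM in M4, M5 and M6, and at 2312 and 14256 CPM in NI2 and NI3. In the library labelled NI1 it was at 787 CPM. Every tumor was below every islet library, the library labelled NI1 included, and the highest tumor was M2. The means were 61.0 CPM ± 88.3 (SD, n = 6) in tumors and 5785 CPM ± 7376 (SD, n = 3) in islets. The log2 fold change was -6.57 (SE 1.21, adjusted p = 0.0704), number 57 of 15532 genes by p, and without the library labelled NI1 it was -7.09 (SE 1.19, adjusted p = 0.0110), past the threshold. In 19 alternatives the adjusted p of Gcg lay between 0.000423 and 0.342 and was under 0.05 in 8, among them leaving out M2 (adjusted p = 0.0314), and the highest came without NI3, where the log2 fold change was -4.67.

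Other alpha-cell markers are given beside Gcg. Of 10 on the list, 7 were tested and 0 passed with all libraries. Without the library labelled NI1, Gc and Ttr were lower in tumors, with log2 fold changes of -3.33 for Gc and -2.31 for Ttr. The summed level of the tested markers was 562 to 1242 CPM in tumors, 1240 CPM in the library labelled NI1, 2219 CPM in NI2 and 2341 CPM in NI3.

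**Figure D2:**
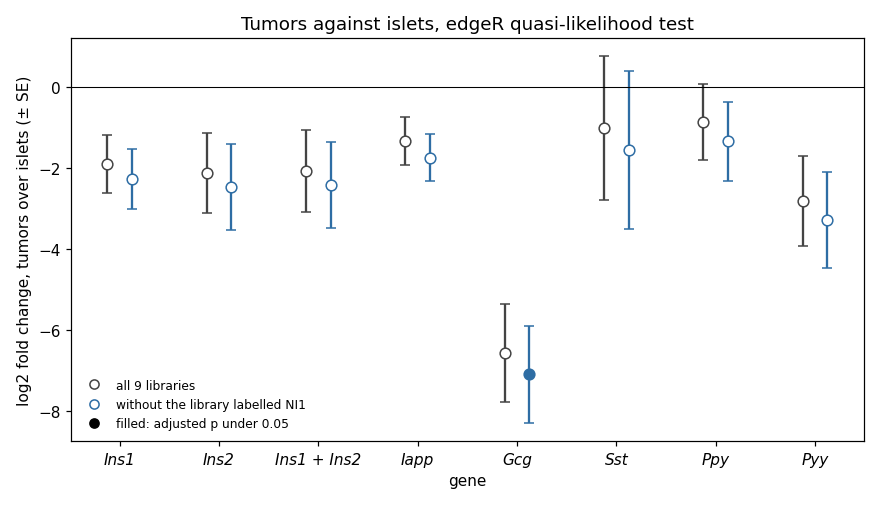
Log2 fold change of tumors over islets with its standard error, from edgeR with all 9 libraries and without the library labelled NI1. All values lie below 0, and the single filled point, an adjusted p under 0.05, is Gcg without the library labelled NI1.

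Somatostatin, which restrains the release of both insulin and glucagon, overlapped between tumors and islets. Sst was at 107, 2528 and 2.74 CPM in M1, M2 and M3, at 80.4, 53.6 and 2.76 CPM in M4, M5 and M6, and at 312 and 2399 CPM in NI2 and NI3. In the library labelled NI1 it was at 79.9 CPM. The tumors spanned 921-fold, the widest range of the 7 genes, and M2, the library from a female, was above all islet libraries. The log2 fold change was -1.01 (SE 1.78, adjusted p = 0.786), and it was -1.55 without the library labelled NI1, 1.24 without NI3 and -4.24 without M2.

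Pancreatic polypeptide and peptide YY are related peptides of the neuropeptide Y family. Ppy was at 282, 358 and 527 CPM in M1, M2 and M3, at 217, 1716 and 60.8 CPM in M4, M5 and M6, at 383 and 2279 CPM in NI2 and NI3, and at 209 CPM in the library labelled NI1. The groups overlapped, with 1 tumor below all islet libraries. The log2 fold change of Ppy was -0.86 (SE 0.94, adjusted p = 0.636), and it was -1.34 without the library labelled NI1 and 0.83 without NI3. Pyy was at 4.79, 42.4 and 163 CPM in M1, M2 and M3, at 7.25, 280 and 53.1 CPM in M4, M5 and M6, at 339 and 1439 CPM in NI2 and NI3, and at 136 CPM in the library labelled NI1. All 6 tumors were below NI2 and NI3, and M3 and M5 were above the library labelled NI1. The log2 fold change of Pyy was -2.80 (SE 1.11, adjusted p = 0.212), and it was -3.28 (SE 1.17, adjusted p = 0.113) without the library labelled NI1 and -1.37 (adjusted p = 0.749) without NI3.

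Of the islet libraries NI3 held the most of the hormones other than insulin and amylin. NI3 was 6.17-fold above NI2 in Gcg, 7.69-fold in Sst, 5.95-fold in Ppy and 4.25-fold in Pyy. The ratio was 1.33 for Ins1, 1.07 for Ins2 and 1.02 for Iapp, so the beta-cell hormones differed little between these libraries. Acinar markers, from the enzyme-secreting cells around the islets, were also highest in NI3. Of 16 on the list 13 were tested, and their summed level was 7603 CPM in NI3, 601 CPM in NI2, 454 CPM in the library labelled NI1 and 21.9 to 319 CPM in tumors, highest in M6. Their part in the hormone levels was not tested. With all libraries 0 of the 13 passed in tumors against islets, 8 were lower in functional tumors, and 2 (Cela1 and Ctrl) passed in tumors against islets without the library labelled NI1.

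The library labelled NI1 and M6 also resembled each other in the beta-cell hormones and not in the others. The library labelled NI1 was 1.00-fold M6 in Ins2, 1.06-fold in Iapp and 1.26-fold in Ins1. It was 22.7-fold above M6 in Gcg, 28.9-fold in Sst, 3.44-fold in Ppy and 2.55-fold in Pyy. With both libraries left out, an alternative chosen after seeing the data, Gcg differed by -6.97 on the log2 scale (SE 1.32, adjusted p = 0.0167), and it was the 1 member called, against 9.34% of all genes.

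The next question was whether functional and non-functional tumors each differ from islets, tested in a fit of all 3 groups that share the islet libraries. In functional tumors 0 of 7 genes passed, against 0.476% of all genes, and in non-functional tumors 0 of 7 passed, against 0.0% of all genes. Unadjusted p-values in edgeR were under 0.05 for Ins1, Ins2 and Gcg in functional tumors and for Gcg in non-functional tumors, and for 3280 and 2246 of all genes. DESeq2 called 3 members in functional and 1 in non-functional tumors, against 10% and 2.54% of all genes. Limma-voom with library weights called 5 and 2, against 22.2% and 7.79%, and limma-voom without weights 0 and 0, against 0.0708% and 0.0%. Without the library labelled NI1 edgeR called Gcg in both, against 8.0% of all genes in functional and 4.06% in non-functional tumors.

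The Gcg difference from islets was -5.86 (SE 1.46, adjusted p = 0.107) in functional tumors and -8.01 (SE 1.61, adjusted p = 0.329) in non-functional tumors, and -6.38 (adjusted p = 0.0300) and -8.53 (adjusted p = 0.0256) without the library labelled NI1. The insulin sum differed by -2.78 (SE 1.34, adjusted p = 0.270) and by -1.59 (SE 1.29, adjusted p = 0.551), and by -3.13 and -1.93 without the library labelled NI1. For Sst the difference was -0.08 (SE 1.87, adjusted p = 0.985) in functional and -4.35 (SE 2.14, adjusted p = 0.365) in non-functional tumors. Iapp was nearly the same distance from islets in both, at -1.32 and -1.35. Ppy stood at -1.30 and -0.53, and Pyy at -3.19 and -2.49, none of them past the threshold.

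The direct comparison asked whether tumors called functional hold more hormone mRNA than those called non-functional. Of the 7 genes 0 passed in edgeR, against 0.0% of all genes, and 0 passed in DESeq2, against 0.715%, or in either limma fit, against 0.0% in each. At an unadjusted p under 0.05 there were 0 of 7 and 1598 of all genes. The insulin sum was 78797, 15782 and 11141 CPM in the functional and 54886, 80778 and 105880 CPM in the non-functional tumors, so that M2 and M3 were below every non-functional tumor and M1 was inside their range. The log2 fold change of functional over non-functional tumors was -1.19 (SE 1.27, adjusted p = 0.773), an estimate toward less insulin mRNA in the functional group that did not pass the test.

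The estimate for Gcg in functional over non-functional tumors was 2.15 on the log2 scale (SE 1.23, adjusted p = 0.566), with overlapping groups, and without M2 it was 0.42 (adjusted p = 0.910). The estimate for Sst was 4.27 (SE 2.14, adjusted p = 0.517) and rested on M2: without it the value was 0.27 (adjusted p = 0.964). For Iapp it was 0.03 (SE 0.74, adjusted p = 0.993), with a sign that turned in several alternatives. Ppy stood at -0.77 (SE 1.15) and Pyy at -0.69 (SE 1.39), both with M5 the highest tumor, and without M5 the values were 1.44 and 1.23.

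Counts of the other hormones set against those of insulin do not depend on the scaling between libraries. Iapp was at 115, 1037 and 528 counts per 1000 insulin counts in M1, M2 and M3, at 123, 190 and 81.5 in M4, M5 and M6, and at 82.9, 117 and 107 in the libraries labelled NI1, NI2 and NI3. In M2 amylin counts therefore exceeded insulin counts, and M3 was the next highest. Gcg was at 0.127, 15.1 and 4.49 per 1000 in the functional tumors, at 0.218, 0.254 and 0.327 in the non-functional tumors, and at 7.12, 7.97 and 43.9 in the libraries labelled NI1, NI2 and NI3. Relative to insulin, M2 was thus inside the islet range of Gcg, and the library labelled NI1 was close to NI2 and not to M6. Sst reached 160 per 1000 in M2 and was 0.0261 to 1.47 in the other tumors and 0.723 to 7.39 in islets. Ppy was at 22.7 in M2, 47.3 in M3 and 21.2 in M5, above the highest islet value of 7.02, and at 0.574 to 3.95 in the other tumors. Pyy was highest in M3 at 14.6, against 1.17 to 4.43 in islets and 0.0609 in M1.

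**Figure D3:**
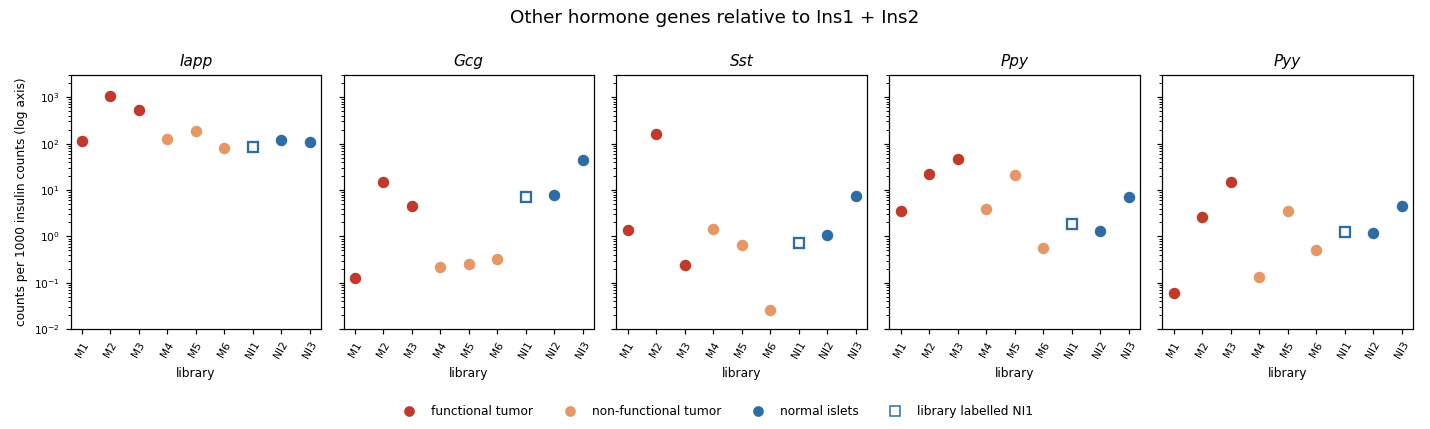
Counts of Iapp, Gcg, Sst, Ppy and Pyy per 1000 counts of Ins1 and Ins2 in each library, on a shared log axis. Points are libraries, colored by group, and the open square is the library labelled NI1. M2 and M3 stand above the other tumors for Iapp and Gcg, and M2 alone for Sst.

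The share of insulin counts that came from Ins2 was 73.0%, 60.5% and 65.6% in M1, M2 and M3, 71.2%, 76.4% and 83.8% in M4, M5 and M6, and 80.4%, 80.3% and 76.6% in the libraries labelled NI1, NI2 and NI3. The islet libraries lay close together, while the tumors extended below them and, in M6, above them. The mean was 71.8% ± 8.16 (SD, n = 6) in tumors and 79.1% ± 2.17 (SD, n = 3) in islets, a difference of -7.35 percentage points (exact two-sided permutation test, p = 0.143). Without M6 the difference was -9.75 points (exact permutation test, p = 0.0357), and without the library labelled NI1 it was -6.69 points (p = 0.286, exact). Leaving out any other single library gave p-values of 0.143 to 0.286 (exact permutation tests). Leaving out both the library labelled NI1 and M6 gave p = 0.0952 (exact permutation test). In both fits without M6 every remaining tumor was below every remaining islet library. Their p-values are therefore the lowest that the exact test can give with so few libraries. Functional tumors averaged 66.4% ± 6.28 and non-functional tumors 77.2% ± 6.31 (SD, n = 3 each), a difference of -10.8 points (exact permutation test, p = 0.2, where 3 against 3 cannot go below 0.1). Within a library the 95% Wilson interval spanned at most 0.238 points.

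**Figure D4:**
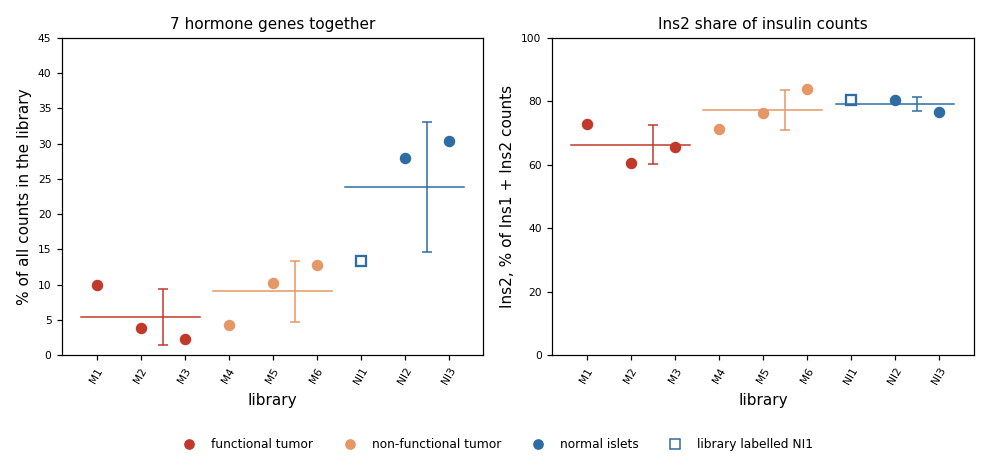
Left, the percentage of all counts held by the 7 hormone genes, and right, the percentage of Ins1 and Ins2 counts that came from Ins2, in each library. Points are libraries, horizontal lines are group means with the SD of 3 libraries as the bar, and the open square is the library labelled NI1. The hormone share is 2.34% to 12.8% in tumors and 13.3% to 30.4% in islets, and the Ins2 share is lowest in M2 at 60.5%.

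Per kilobase of exon, Ins2 had the highest mean of the 7 genes in every group. In M2 and M3, however, Iapp was above Ins2 on this scale, at 16808 and 6037 CPM per kb against 7274 and 5574 CPM per kb. Mean Ins2 was 18890, 48161 and 144962 CPM per kb in functional tumors, non-functional tumors and islets. Iapp followed in functional tumors at 10726 CPM per kb with Ins1 at 9846 CPM per kb, a pair that did not differ beyond the spread of the libraries, while Ins1 was the second and Iapp the third in the other groups. Gcg was the fourth in islets, at 3872 CPM per kb, and by group mean the last in both tumor groups, at 66.6 and 15.0 CPM per kb, although its values overlapped those of Sst and Pyy there. Sst, Ppy and Pyy overlapped between libraries in islets, while the 3 values of Ppy were above those of Pyy in functional tumors and above those of Sst in non-functional tumors. The exonic length of Ins2 includes the read-through model, which lowers its value on this scale. Per kilobase of coding sequence, Iapp was still above Ins2 in M2, at 58676 against 28920 CPM per kb. In M3 the order turned, with Ins2 at 22162 and Iapp at 21074 CPM per kb.

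The other genes of hormone production were taken from lists of islet biology. Enzymes and folding factors of prohormone processing were all below 0 in tumors against islets (13 of 13), with a median log2 fold change of -0.86, against 0.03 over all genes, and 0 passed. Without the library labelled NI1, 3 of 13 were lower in tumors: Scg5, a chaperone of the convertase Pcsk2, at -1.88, Pam, which amidates peptides, at -1.82, and Erp44, an ER folding factor, at -1.24. Of 13 granule proteins 0 passed with all libraries, and without that library Ptprn, a granule membrane protein, was lower at -1.50. Of 16 tested transcription factors that regulate hormone genes 0 passed with all libraries, the median was 0.10, and Pdx1, which drives insulin transcription, was at 0.44 (SE 0.20, adjusted p = 0.249). Without the library labelled NI1, Pax4 was higher in tumors. It was at 0 CPM in NI2 and NI3, 58.0 CPM in the library labelled NI1 and 0.786 to 144 CPM in tumors.

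Among beta-cell markers other than hormones 0 of 11 passed with all libraries, with a median of 0.04. G6pc2, a beta-cell phosphatase, was lower at -1.78 (adjusted p = 0.0388) without the library labelled NI1. Delta-cell and PP-cell markers other than hormones gave 0 of 6 in both fits, and hormone receptors 0 of 10. Of other islet and gut peptides 4 of 10 were tested. Vip, a neuropeptide of pancreatic nerves, was lower in tumors at -6.76 (SE 1.01, adjusted p = 0.0290). Npy, of the same family as Ppy and Pyy, was higher at 5.94 (SE 1.01, adjusted p = 0.0113) without the library labelled NI1, at 27.3 to 257 CPM in tumors, 22.0 CPM in that library and 1.90 and 1.31 CPM in NI2 and NI3.

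As a description across the 9 libraries, the genes whose log2(CPM + 1) followed each hormone most closely were found among 10601 genes with a mean of at least 10 CPM. Libraries fall into groups and differ in depth, so no test was made. For Ins1 they were Sdf2, Selenos and Guk1 (Pearson r 0.970 to 0.984), and for Ins2 they were Jam3, Clic5 and Alg5 (0.977 to 0.986). For Iapp they were Tmbim4, Sil1 and Eif3m (0.983 to 0.984), and for Gcg they were Ighg2b, Anks4b and Ngly1 (0.935 to 0.958). Sst was followed by Bysl, Gm10053 and Ttll12 (0.941 to 0.959), Ppy by Shld1, Bud31 and H3f3c (0.882 to 0.891), and Pyy by Capsl, Zfp628 and H2-Ea-ps (0.938 to 0.957). Among the hormones themselves, Ins1 and Ins2 had the highest r, 0.972, and Ins2 and Ppy the lowest, 0.125.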

How the data were processed

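The authors sequenced single-end reads of 75 bases and, per their processing notes, trimmed them with Trimmomatic 0.38 and quantified transcripts with Salmon 1.4.0 on mm10. The step from transcripts to genes is not given in the sources used here. The deposited table holds whole-number estimated counts per gene, not scaled between libraries, although its name speaks of TPM, so it was analysed as counts.

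Symbols came from GENCODE M21 (54094 of 54347 genes; the other 253 held 0.0121% of the counts). A gene entered the fit if 3 or more libraries held 1 CPM or more of it (15532 genes). After TMM scaling these were tested by edgeR 4.0.16 (quasi-likelihood, R 4.3.3), with Benjamini-Hochberg adjustment over all of them, and called at an adjusted p under 0.05. The SE is the log2 fold change divided by the square root of F. Tumors were fitted as 1 group of 6, and the other comparisons in a fit of 3 groups. The Ins2 share was compared by an exact permutation test. DESeq2 1.42.0 and limma 3.58.1 were alternatives. The fits were tested on simulated data with log2 changes of 3 and an equal spread for all genes and libraries, unlike these data. There 9.5% to 14.6% of the DESeq2 calls were false, against 3% to 5.24% of the edgeR calls. For limma-voom it was 3.483% to 4.785%, with and without library weights. A count of 3, the detection floor, was 0.0425 to 0.119 CPM.

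The genes named were the 7 members, up to 3 genes of each list (those past the threshold with the largest change, else those with the smallest p), 3 genes most like each member, and Cdk5r1. Genes named outside this rule were chosen after their values were seen. The members and lists were chosen with earlier results of these data known. Results for some genes of the lists are not reported here.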

Additional observations from a re-analysis of the deposited data

How the results depend on the processing

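With all libraries, tumors against islets gave 0 called members. The count was 1 (Gcg) with no filter on low counts (104 of 31582 genes called) and with library totals without TMM (66 of 15532). Gcg was also the 1 member called without M2 (24 of 15532) and in the fit of 3 groups (98 of 15532). The same held without the library labelled NI1 (8.51% called) and without NI1 and M6 (9.34%). DESeq2 called 4 members (8.06% of all genes called) and limma-voom with library weights 5 (26.8% called). In functional tumors against islets the count was 1 with no filter (433 of 31582 genes called). It was also 1 without the library labelled NI1 (8.0% called) and without NI1 and M6 (1455 of 15532). It was 3 with DESeq2 (10% called) and 5 with library weights (22.2%). In non-functional tumors against islets the count was 1 with no filter (36 of 31582 genes called) and with DESeq2 (2.54% called). It was also 1 without the library labelled NI1 (4.06%) and without NI1 and M6 (1078 of 15532), and 2 with library weights (7.79%). Leaving out 1 library at a time gave 0 to 1 called members in these comparisons and 0 in functional against non-functional tumors. Of all 15532 genes, these fits called 7 to 1321 for tumors, 0 to 1242 for functional and 0 to 630 for non-functional tumors against islets. They called 0 to 1 in functional against non-functional tumors. The insulin sum passed with DESeq2 (-2.07 for tumors and -2.80 for functional tumors against islets) and with library weights (-2.46 and -3.10). With 1 library left out it ranged from -2.41 to -1.79 for tumors, from -4.17 to -2.35 for functional tumors and from -1.93 to -1.32 for non-functional tumors against islets, and from -2.58 to -0.77 for functional against non-functional tumors. The Ins2 share difference ranged from -9.75 to -5.09 points for tumors against islets and from -14.1 to -7.48 points for functional against non-functional tumors. The cause of these changes was not tested.

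Signs turned only for values that did not pass the test. With 1 library left out, tumors against islets ranged from -4.24 to 1.24 for Sst and from -1.71 to 0.83 for Ppy, both highest without NI3. Functional tumors against islets ranged from -4.08 to 2.17 for Sst and from -1.77 to 0.40 for Ppy, again highest without NI3, and non-functional tumors against islets from -2.73 to 1.17 for Ppy. Functional against non-functional tumors ranged from -0.45 to 0.41 for Iapp, from -1.31 to 1.44 for Ppy and from -2.26 to 1.23 for Pyy, the last 2 highest without M5. Sst in functional tumors against islets was 0.37 with library totals. Iapp in functional against non-functional tumors was -0.0074 with limma-voom, -0.051 with library weights and -0.080 without NI1 and M6, and Ppy was 0.37 with limma-voom and 0.25 with library weights.

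The labels do not say whether the numbers 1 to 3 that functional tumors and islets share pair the libraries. Same-numbered deviations from the group means correlated at -0.05, 0.03 and -0.16, and differently numbered ones at -0.12 to 0.18. With 3 libraries in a group these values cannot settle the pairing. With the replicate block in the 6 libraries, 0 members passed, the insulin sum was -3.37 and Gcg was -6.00 (adjusted p = 0.168, edgeR), and 35 genes were called against 130 without the block. The lowest hormone level was 2.74 CPM, of Sst in M3, and a count of 3 was 0.0425 to 0.119 CPM.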

Other observations

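Markers of other cell types and early response genes are given beside the hormones. Macrophage markers were above 0 in tumors against islets for all 7 tested, with a median log2 fold change of 1.31, and 0 of 7 passed in edgeR with all libraries. Without the library labelled NI1, 3 of 7 were higher in tumors (Mrc1, Cd68 and Adgre1). Among 8 lymphoid markers, the B-cell gene Ms4a1 was lower in tumors, at -4.64 (adjusted p = 0.00993). Of 13 early response genes, which tissue dissociation induces, 10 were lower in tumors, Fos at -7.78 among them. Fos was at 1.41 to 3.92 CPM in tumors, 156 CPM in the library labelled NI1, 1045 CPM in NI2 and 440 CPM in NI3. Their part in the hormone results was not tested.

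Of 8 proliferation genes 0 passed with all libraries (median 1.74), and 7 were higher in tumors without the library labelled NI1. Their summed level was 303 to 921 CPM in tumors, 287 CPM in the library labelled NI1, 147 CPM in NI2 and 46.5 CPM in NI3. Fibroblast and pericyte markers gave 0 of 8, and 1 (Pdgfrb, higher) without that library, while ductal markers gave 0 of 6 and endothelial markers 0 of 7 in both fits. No sample of the 9 measures checked among the 6 tumors (the 7 genes, the insulin sum and the Ins2 share) stood past Dixon's limit.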
